A study of Mus musculus with 18 samples.

Results

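Effector CD8 T cells of mice labelled as conditional knockouts of GRP75 (cKO) were compared with effector cells of wild-type (WT) mice, using the 6 libraries that carry the effector label out of 18 in the series. Each genotype had 3 effector libraries. The starting naive cells were taken from spleen and lymph nodes at an age of 8 weeks and became effector cells in culture, and the treatment label states none, per the submitters' labels and design text. The knockout is of Hspa9, the gene of GRP75. The labels do not name the Cre driver, the deleted part of the gene, the strain, the sex or the culture conditions, and they do not say whether the replicates of a group came from separate mice. The SE and p-values below therefore measure only the spread between these libraries, which may be technical. Naive and memory libraries of the same genotypes, 3 per group, served for the check of the effector label, for a joint estimate of the spread and for the comparison between subsets.

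GRP75, also called mortalin, is an HSP70 chaperone of the mitochondrial matrix. It pulls imported proteins across the inner membrane, helps them fold, takes part in the making of iron-sulfur clusters, and also links mitochondria to the endoplasmic reticulum at calcium-transfer contacts. Effector CD8 T cells are the dividing, killing form of the CD8 lineage. They load granules with granzymes and perforin, secrete interferon gamma, replace lymph node homing receptors by receptors for inflamed tissue, and carry less of the IL-7 survival receptor than naive or memory cells.

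Poly-A RNA was sequenced, and between 15387638 and 17664162 reads per effector library were assigned to genes. Values are given as normalised reads, which are the reads of a gene divided by the size factor of its library. Of 24117 listed genes, 13815 had at least 10 normalised reads in at least 3 of the 6 libraries and were tested with limma on log2(normalised reads + 1). A gene was called at a Benjamini-Hochberg adjusted p under 0.05, and every adjusted p given for a gene is of this kind. Fold changes are libraries labelled cKO over WT, and means are given ± SD over 3 libraries. The replicates lay close together, with a common coefficient of variation of 5.499% between replicates in edgeR, so small differences could be called. The WT libraries carried the profile named by their label. Per kilobase of transcript and 1000000 reads, granzyme B (Gzmb) stood at 1251 in effector against 0.683 in naive WT libraries, Ifng at 409 against 0.16, and Mki67 at 128 against 1.30, while Cd8a stood at 487 and Cd4 at 1.14 in effector WT libraries.

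Hspa9 itself (ENSMUSG00000024359) had 2001, 2138 and 2140.0 normalised reads in WT and 2168, 2450.1 and 2401 in the libraries labelled cKO (log2 fold change 0.16 with an SE of 0.05, adjusted p = 0.033). The level was thus not lower under the cKO label, and the groups did not overlap. The call did not survive in the fit of 18 libraries described next (0.0988). Of the 6 libraries, 4 also ended it when left out, namely WT replicates 1 (0.153) and 3 (0.0604) and cKO replicates 2 (0.162) and 3 (0.118). A whole-gene read count cannot tell which exons the reads cover. Since these reads run against the label, cKO names a label throughout, and every direction below is that of the libraries labelled cKO against those labelled WT.

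In effector cells, 2779 of the 13815 genes tested were called, which is a background of 20.1%. Of these, 1485 rose (10.7% of the genes tested) and 1294 fell (9.37%). Every count of list members called in this comparison is to be read against these shares. The 3 libraries of each group did not overlap for 4889 of the genes tested (35.4%), and for 2716 of the 2779 called. A lack of overlap, where given below, therefore adds little to a call. Most changes were small, with 1254 called genes changed by less than 1.25-fold and 1968 by less than 1.5-fold, while 388 rose and 103 fell by at least 2-fold. The median log2 fold change was 0.39 among genes that rose, -0.33 among genes that fell and -0.01 over all genes tested. When the spread was estimated over all 18 libraries of the series, 1519 genes were called, 929 higher and 590 lower. A single gene said below to have risen or fallen was also called in each of 16 alternative fits unless the exception is given, and the fit of 18 libraries is named beside a gene or a list where it ended a call or moved a count by over 1.5 times.

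Genes that rose by at least 2-fold included the Ly49 receptor genes Klra1, Klra3, Klra6, Klra7 and Klra10, the killer lectin gene Klri2, the MAP kinase inhibitor gene Spry2, the transcription factor gene Ikzf2 and several genes of erythroid or myeloid cells. Genes that fell by at least 2-fold included Gpr55, which encodes a lipid-sensing receptor, Nrp1, a coreceptor for semaphorins and VEGF, the muscle methyltransferase gene Smyd1 and Rhoh. Rhoh encodes a haematopoietic GTP-binding protein that helps recruit ZAP70 to the T cell receptor. It had 1758, 1762 and 1706 normalised reads in WT and 723, 728 and 718 in cKO, so that all cKO libraries lay far below all WT libraries (log2 fold change -1.27 with an SE of 0.05, adjusted p = 1.7e-12). Cdk5rap1, which encodes an enzyme modifying mitochondrial tRNAs, fell too (287 ± 42.1 in WT and 119 ± 5.13 in cKO, log2 fold change -1.26), as did Ptpn13, which encodes a large tyrosine phosphatase (657 ± 32.8 and 334 ± 34.2, log2 fold change -0.98).

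**Figure D1:**
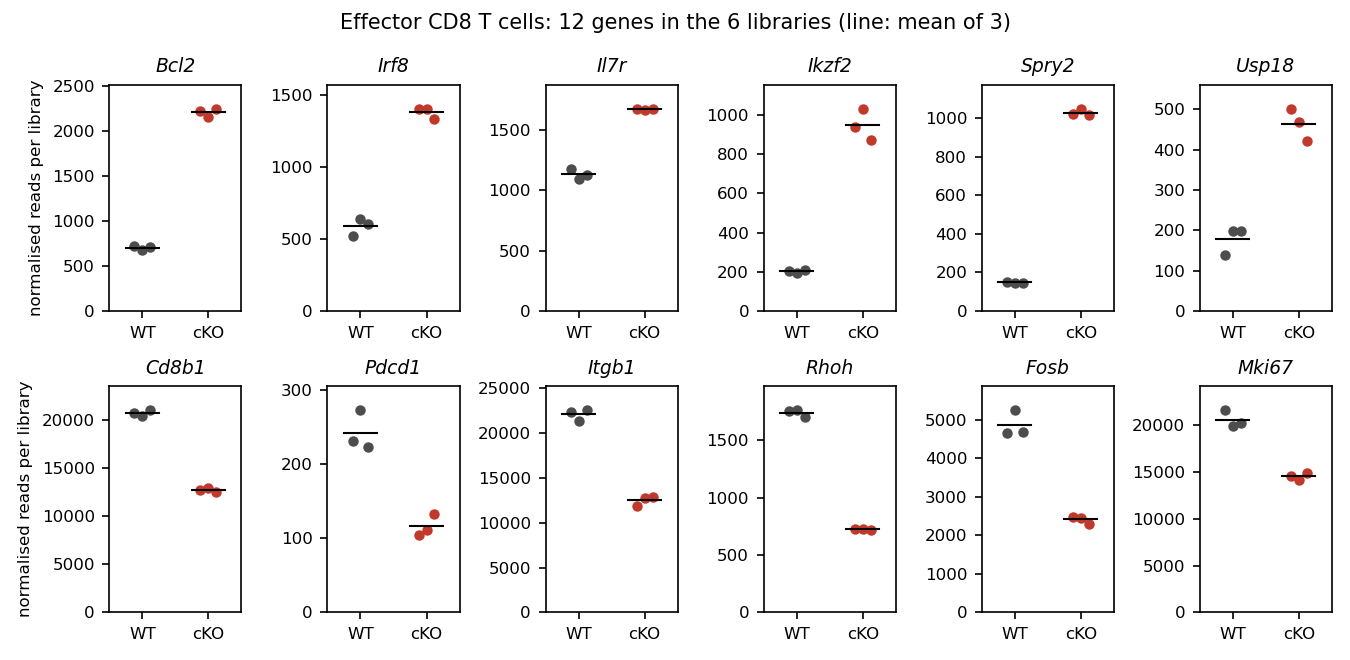
Normalised reads of 12 genes in the 6 effector libraries, with 1 point per library, grey for WT, red for cKO, and a line at the mean of each group; every axis starts at 0. The cKO libraries lie above the WT libraries for Bcl2, Irf8, Il7r, Ikzf2, Spry2 and Usp18. They lie below them for Cd8b1, Pdcd1, Itgb1, Rhoh, Fosb and Mki67. There is no overlap in any of the 12 genes, as for 2716 of all 2779 called genes.

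The first question was whether the effector state itself differed. Genes of the killing machinery were called higher more often than lower under the cKO label, by small amounts. Of 20 tested cytotoxic granule genes, 9 were called higher and 1 lower (median log2 fold change 0.12), with 5 and 0 in the fit of 18 libraries. Granzyme B, the main caspase-activating granzyme, had 28706 ± 851 normalised reads in WT and 29948 ± 2371 in cKO and was not called (log2 fold change 0.06 with an SE of 0.04, adjusted p = 0.4), and neither was perforin (Prf1), with 3998 ± 117 and 4274 ± 174 (adjusted p = 0.11). Without cKO replicate 1, Gzmb was called higher, with a log2 fold change of 0.13 (adjusted p = 0.0056). Serpinb9, which protects the killer cell from its own granzyme B, rose from 4442 ± 173 to 6775 ± 96.2 (log2 fold change 0.61 with an SE of 0.04, adjusted p = 1.1e-09), and Gzmm, another granzyme gene, rose from 355 ± 30.6 to 509 ± 38.2 (log2 fold change 0.52). The death ligand gene Tnfsf10, which encodes TRAIL, rose from 793 ± 32 to 1212 ± 84.6 (log2 fold change 0.61). Gzmk, a tryptase-type granzyme gene, stood lower, at 4792 ± 156 in WT and 3522 ± 69.8 in cKO (log2 fold change -0.44), with its call lost in the fit of 18 libraries (adjusted p = 0.52). Ifng reads stood at 8468 ± 442 and 10243 ± 329 (log2 fold change 0.28), a call that the fit of 18 libraries also ended (adjusted p = 0.46). The chemokine gene Xcl1, whose product draws cross-presenting dendritic cells, rose 1.97-fold, from 112 ± 11.6 to 221 ± 26.4, and was the 1 gene of 15 cytokine and chemokine genes that was called higher in all the fits run.

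Inhibitory receptor genes did not move as a block. Of 17 tested, 9 were called higher and 3 lower, with a list median of 0.39 that dropped to 0.18 without WT replicate 3, 0.17 without cKO replicate 1 and 0.14 without cKO replicate 2. The genes called lower were those of classical checkpoints. Pdcd1, the gene of PD-1, had 232, 273 and 224 normalised reads in WT and 105, 112 and 133 in cKO (log2 fold change -1.06 with an SE of 0.13, adjusted p = 9.3e-06), and the groups were well apart. Ctla4 fell by 23.7%, from 1285 ± 47.7 to 981 ± 78.5. Lag3 stood at 445 ± 41.2 and 329 ± 41, with its call lost in the fit of 18 libraries (adjusted p = 0.21), and Havcr2, the gene of TIM-3, at 1586 ± 58.2 and 1584 ± 13.8 (adjusted p = 0.99). The receptors that rose were of other families. The neighbouring leukocyte immunoglobulin-like receptor genes Lilrb4a and Lilrb4b rose 2.23-fold and 2.14-fold. These are close copies that can share reads, so their separate values are uncertain. Entpd1, the gene of the ATP-degrading ectoenzyme CD39, rose 1.64-fold to 1453 ± 79.1, Tigit rose 1.41-fold, Cd5 1.4-fold and Cd160 1.39-fold.

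Costimulatory receptors leaned the other way, with 5 of 19 tested genes higher and 9 lower (median -0.14), or 4 and 4 in the fit of 18 libraries. Slamf6, a homophilic receptor of less differentiated T cells, fell from 1164 ± 40.4 to 661 ± 53.8 (log2 fold change -0.82 with an SE of 0.06, adjusted p = 3.7e-08). Cd226, which competes with TIGIT for the same ligands, fell from 4459 ± 245 to 2669.7 ± 87.7 (log2 fold change -0.74 with an SE of 0.05, adjusted p = 8.7e-10), and Cd28, the main costimulatory receptor, fell by 19.4%. All 5 that were called higher belong to the TNF receptor and ligand families, among them Tnfsf8 (2.11-fold), Tnfsf14 (1.54-fold), Tnfrsf18 (1.43-fold) and Tnfrsf9 (1.28-fold), the last of which encodes 4-1BB.

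Genes of homing and long-term survival changed in both directions. Bcl2, which blocks mitochondrial apoptosis, had 718, 671 and 710.4 normalised reads in WT and 2222, 2157 and 2243 in cKO (log2 fold change 1.66 with an SE of 0.05, adjusted p = 5.7e-14). Il7r, the receptor gene for the survival cytokine IL-7, rose from 1132 ± 40.4 to 1672 ± 5.54 (log2 fold change 0.56 with an SE of 0.05, adjusted p = 1.3e-07). The groups were separate for both genes. In contrast, Tcf7, the gene of the stem-like factor TCF1, fell by 19.8% from 1717 ± 14.2 to 1376 ± 77. Ccr7, the chemokine receptor gene for lymph node entry, stood at 415 ± 8.63 in WT and 329.7 ± 30.1 in cKO (log2 fold change -0.33 with an SE of 0.09, adjusted p = 0.0097), and its call was lost without cKO replicate 3 (adjusted p = 0.055). S1pr1, the receptor gene for lymph node exit, fell by 17.6%, and Klf2, which drives S1pr1, fell by 28.6%. Over the list of naive and stem-like genes, 7 of 24 rose and 6 fell, with a median of -0.02, or 0.01 without cKO replicate 2. Satb1, a chromatin organiser of T cells, rose 1.3-fold, while Actn1, an actin cross-linker of naive cells, fell by 45% from 1213 ± 60.3 to 668 ± 4.89.

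Of 17 homing receptor genes, 10 stood lower and 3 higher (median -0.12, or -0.18 with no filter on low values), with 4 and 3 in the fit of 18 libraries and 5 lower without cKO replicate 3. Cxcr4, a receptor for bone marrow retention, and Cxcr6, a receptor of tissue and liver homing, rose 1.39-fold and 1.27-fold. Gpr183, the oxysterol receptor gene that positions cells in lymphoid tissue, fell by 29.9%. The adhesion genes that changed most were integrins. Itgb1 and Itga4, whose products pair as VLA-4 and bind VCAM1 and fibronectin, both fell. Itgb1 had 22359.7, 21349 and 22539 normalised reads in WT and 11887, 12744 and 12872 in cKO, with no overlap (log2 fold change -0.82 with an SE of 0.04, adjusted p = 6.2e-12). Itga4 fell by 27.6%, from 34891 ± 1411 to 25269.8 ± 586, and Itgad, a CD11-type chain, fell by 57.9%. Itga2, a collagen receptor chain also used as an NK cell marker, rose 1.71-fold, from 436 ± 33.3 to 747 ± 2.08. In all, 8 of 18 integrin genes stood higher and 5 lower, with 4 and 4 in the fit of 18 libraries. Ahnak, a giant scaffold protein gene abundant in effector cells, fell by 19.5% to 43829.5 ± 812. Of 18 annexin, S100 and galectin genes, 8 stood lower and 1, Capg, rose. Only 1 was called lower in the fit of 18 libraries.

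Transcription factors of effector fate were split, 9 of 25 higher and 8 lower (5 and 4 of 24 in the fit of 18 libraries, and 5 lower without WT replicate 3). Ikzf2, the gene of the Ikaros-family factor Helios, had 206, 193 and 209 normalised reads in WT and 939, 1033 and 873 in cKO (log2 fold change 2.22 with an SE of 0.08, adjusted p = 6.5e-13). Irf8, a factor of early effector differentiation and also the lineage factor of conventional dendritic cells, had 521, 639 and 603 in WT and 1402, 1399.9 and 1330.0 in cKO (log2 fold change 1.23 with an SE of 0.07, adjusted p = 2.8e-10). For both genes the lowest cKO library lay above the highest WT library by a wide margin. Summed markers of macrophages and dendritic cells also stood higher in cKO, at 1006 ± 12.9 against 834 ± 3.16 CPM (counts per 1000000 reads of the library), and their part in the Irf8 value was not tested. In bulk RNA, fewer cells of a type and less RNA per cell cannot be told apart. Nr4a3, an immediate target of receptor signalling, rose 1.61-fold and Bhlhe40, a factor of tissue-resident programmes, 1.25-fold. Irf4 and Batf, which act together downstream of the T cell receptor, fell by 28.2% and 20.5%, and Maf fell by 42.9% from 189 ± 25.3 to 108 ± 11.3. Tbx21, the gene of the effector factor T-bet, was not called, at 6049 ± 549 in WT and 5668 ± 512 in cKO (adjusted p = 0.3). Without cKO replicate 1 it was called lower, by -0.16 (adjusted p = 0.044). Eomes and Prdm1 stood lower by 15.2% and 18.8%, and the fit of 18 libraries gave no call for either (adjusted p = 0.075 and 0.28). Eomes also lost its call without WT replicate 2 (0.078), WT replicate 3 (0.061) or cKO replicate 1 (0.064).

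Cytokine receptor genes were called higher more often than lower, 13 against 3 of 27 tested, with a median of 0.18. Without WT replicate 1, 1 of them was called lower. Il2ra, the high-affinity IL-2 receptor chain, had 703, 598 and 726 normalised reads in WT and 918, 989 and 1014 in cKO (log2 fold change 0.53 with an SE of 0.07, adjusted p = 3.2e-05), with every cKO library above every WT library. The shared IL-2 and IL-15 receptor chain gene Il2rb rose 1.21-fold, from 9997 ± 117 to 12126 ± 366. Il18r1 and Il1rl1, neighbouring genes for the IL-18 and IL-33 receptors, rose 1.43-fold and 1.99-fold. Il1rl1 started from a low level, 193 ± 6.16 in WT. The interferon gamma receptor gene Ifngr1 rose 1.3-fold, to 14696 ± 429.

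Feedback genes of cytokine receptors were higher as well. These are the targets that STAT factors switch on and whose products damp or carry the cytokine signal. Of 11 tested, 7 were called higher, against a background of 10.7%, and none lower (median 0.43). Cish, the STAT5-induced inhibitor gene, had 381, 495 and 455 normalised reads in WT and 762, 656 and 763 in cKO (log2 fold change 0.72 with an SE of 0.09, adjusted p = 1.2e-05). Socs3 rose 1.39-fold and Socs7 1.35-fold. The survival kinase genes Pim1, Pim2 and Pim3 rose 1.29-fold, 1.39-fold and 1.28-fold, Pim1 from 10987 ± 281 to 14152 ± 559. The cKO libraries lay above the WT libraries for each of these 6 genes.

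Inhibitor genes of the ERK pathway were also higher. Spry2, an ERK-induced gene whose product restrains receptor-to-RAS signalling, had 151, 147 and 147 normalised reads in WT and 1023, 1049 and 1017 in cKO, 6.94-fold more (log2 fold change 2.79 with an SE of 0.08, adjusted p = 1.6e-14). Dusp5, a nuclear ERK phosphatase gene, rose 1.29-fold and Spred1, a RAS inhibitor gene, 1.44-fold. Over the list of MAP kinase feedback genes, 5 of 11 were called higher and none lower, falling to 3 of 11 without cKO replicate 3 and to 3 of 12 in the fit of 18 libraries. Immediate early transcription factors parted within the FOS family. Fos and Fosb, which rise within minutes of stimulation, both fell. Fosb had 4656, 5246 and 4687 in WT and 2488, 2463 and 2305 in cKO (log2 fold change -1.01 with an SE of 0.05, adjusted p = 2.5e-11), and Fos fell by 40.1% from 3755 ± 93.8 to 2248 ± 77.4. Fosl2, a more stable member, rose 1.69-fold and Egr3, a zinc finger factor that limits T cell activation, rose 2.16-fold, from 260.0 ± 31.2 to 561 ± 7.27.

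**Figure D2:**
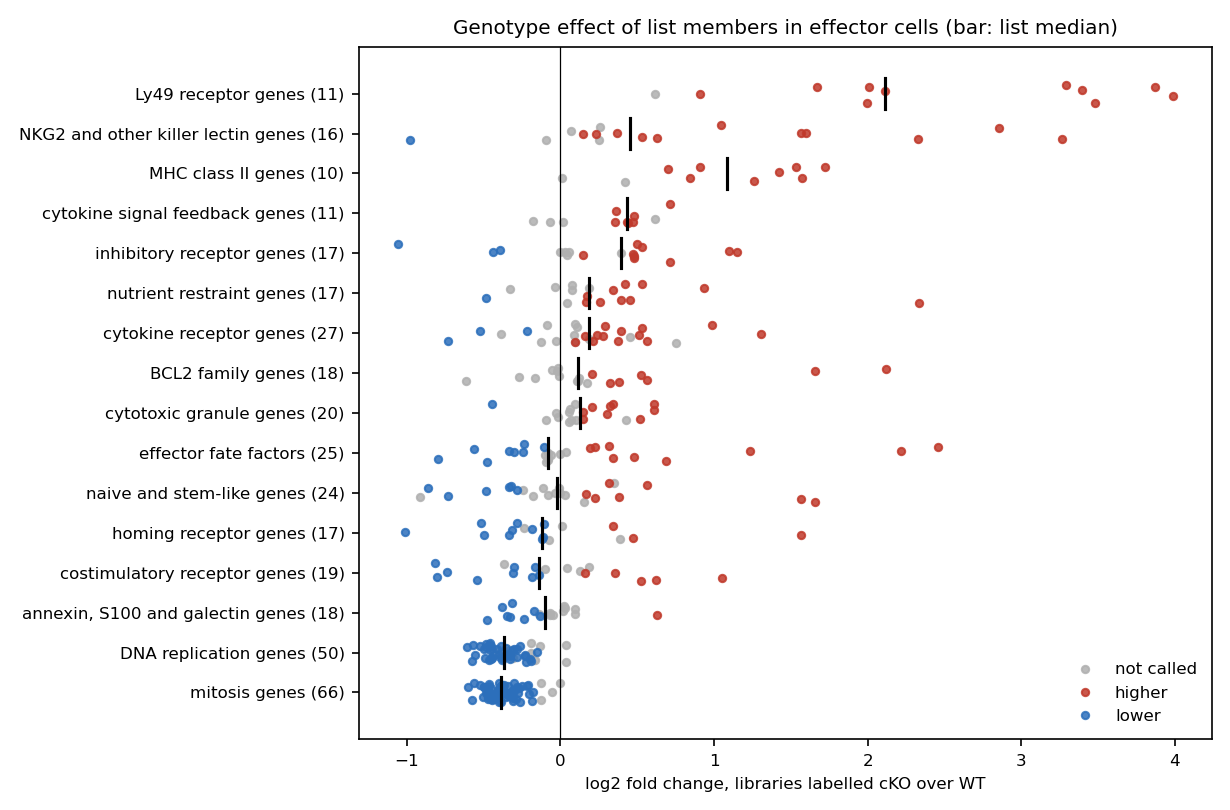
Log2 fold changes of the tested members of 16 gene lists in effector cells, with 1 point per gene (red called higher, blue called lower, grey not called), the number tested in brackets and a black bar at the list median. All mitosis genes lie left of 0, while 10 of 11 Ly49 genes are called to the right.

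Genes of mitosis and DNA replication were lower as groups. All 66 tested mitosis genes had a lower mean log2 level under the cKO label, 62 of them were called lower, and none was called higher, against 9.37% called lower among all genes tested. The median log2 fold change was -0.38. Of 50 DNA replication genes, 40 were called lower and none higher, with a median of -0.36. In the fit of 18 libraries 29 mitosis and 27 replication genes were called lower. Summed over each list, mitosis genes had 9922, 9692 and 9832 CPM in WT and 7579, 7523 and 7653 in cKO. Replication genes had 5835, 5787 and 5754 and 4516, 4549.6 and 4569 in the same order. The groups did not overlap on either sum, and p was 0.1 for each in an exact two-sided permutation test, the smallest that 3 libraries against 3 allow. The changes were shallow, since no mitosis or replication gene fell by as much as 2-fold.

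Among mitosis genes, Bub1, a kinase gene of the spindle checkpoint, fell from 1303 ± 10.2 to 859 ± 29.2, by 34% (log2 fold change -0.60 with an SE of 0.05, adjusted p = 1.5e-07), the largest fall of its list. Kif11, the motor that separates spindle poles, fell by 26.9%. Mki67, the proliferation antigen Ki-67, had 21561, 19897 and 20168 normalised reads in WT and 14561, 14172 and 14891 in cKO, and the groups were separate. Among replication genes, Uhrf1, which recruits the maintenance methyltransferase to new DNA, fell by 33%, and Dnmt1, that methyltransferase, by 23.9%. Rrm2, the limiting subunit of ribonucleotide reductase, fell by 32.5%, from 4138 ± 28.5 to 2791 ± 229. The replicative helicase subunits Mcm3 and Mcm5 fell by 28.5% and 27.1%. Genes that act earlier, in G1, did not move as a block. The cyclin gene Ccnd2, which cytokine signals induce, rose 1.21-fold, while the E2F-repressor genes E2f8 and Rbl1, themselves induced late in G1, fell by 28.5% and 21.2%. Of 25 such G1 genes, 4 were called higher and 7 lower. In the fit of 18 libraries, with 24 of them tested, 2 were called each way. Without WT replicate 3, 1 was called higher, and without WT replicate 1, 4 were called lower.

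Since mitosis and replication genes moved together, their promoters were read for the elements known to time them. Late cell cycle promoters often carry a cell cycle homology region, here TTTGAA, near a CCAAT box, the site of NF-Y, and replication promoters often carry an E2F site, here TTCCCGC or TTGGCGC. The 250 bases before each start were searched on both strands in RefSeq promoter sequences of the mouse build GRCm38.p6, which is not the build of the read counts. TTGGCGC after an A also contains a CCAAT box on the other strand, so these elements can overlap. The windows below belong to 3 mitosis genes and 2 replication genes that were called lower and hold the element. Rrm1, the large subunit of ribonucleotide reductase, was picked after its value was seen. They are printed from 5′ to 3′ on the strand of the gene, ending at the base before the start, with capitals for TTTGAA or CCAAT, in either orientation, in the mitosis genes and for the E2F sequences in the replication genes. The windows lie at chr11:99024190-99024439 (Top2a, minus strand), chr7:135716380-135716629 (Mki67, minus), chr19:37376132-37376381 (Kif11, plus), chr17:56303087-56303336 (Uhrf1, plus) and chr7:102441445-102441694 (Rrm1, plus).
Top2a: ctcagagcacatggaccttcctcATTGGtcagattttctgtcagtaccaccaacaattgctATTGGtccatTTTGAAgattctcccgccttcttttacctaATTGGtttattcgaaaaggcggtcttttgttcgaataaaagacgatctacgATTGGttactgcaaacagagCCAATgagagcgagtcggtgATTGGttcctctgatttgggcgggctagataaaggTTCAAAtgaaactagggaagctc
Mki67: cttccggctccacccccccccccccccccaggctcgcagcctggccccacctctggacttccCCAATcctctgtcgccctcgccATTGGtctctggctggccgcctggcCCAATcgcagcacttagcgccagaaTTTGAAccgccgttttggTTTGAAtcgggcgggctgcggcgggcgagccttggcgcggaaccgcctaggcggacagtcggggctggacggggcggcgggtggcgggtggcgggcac
Kif11: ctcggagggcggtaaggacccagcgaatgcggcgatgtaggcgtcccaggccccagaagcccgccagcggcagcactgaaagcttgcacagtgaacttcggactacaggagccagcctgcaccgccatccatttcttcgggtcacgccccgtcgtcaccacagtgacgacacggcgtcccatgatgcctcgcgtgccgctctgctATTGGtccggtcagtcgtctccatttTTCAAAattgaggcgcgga
Uhrf1: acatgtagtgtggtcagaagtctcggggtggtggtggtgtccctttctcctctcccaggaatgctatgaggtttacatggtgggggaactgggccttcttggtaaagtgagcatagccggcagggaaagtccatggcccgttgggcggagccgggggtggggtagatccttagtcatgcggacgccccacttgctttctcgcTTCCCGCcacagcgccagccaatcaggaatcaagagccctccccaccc
Rrm1: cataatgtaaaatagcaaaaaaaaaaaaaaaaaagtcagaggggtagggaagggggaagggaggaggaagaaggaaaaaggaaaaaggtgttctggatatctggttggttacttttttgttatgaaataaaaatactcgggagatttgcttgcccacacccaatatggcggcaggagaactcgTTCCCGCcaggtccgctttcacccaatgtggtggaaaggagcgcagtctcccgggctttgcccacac

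Top2a, which untangles replicated chromosomes, holds TTTGAA in both orientations, the nearer ending 18 bases before the start, and 6 CCAAT boxes. Mki67 holds TTTGAA at 111 and 93 bases before the start with 3 CCAAT boxes upstream, and Kif11 holds TTTGAA at 14 bases with a CCAAT box at 41. Over the list, 21 of the 56 mitosis genes with a sequence held TTTGAA (37.5%), against 16% of all 32851 windows and 18.3% of all 27025 genes of the table. A CCAAT box stood in 66.1% of mitosis genes and 65% of the 40 replication genes with a sequence, against 37.5% of all genes. Both elements stood together in 30.4% of mitosis genes and 6.45% of all genes. An E2F sequence stood in 32.5% of replication genes and 19.6% of mitosis genes, against 6.45% of all genes. TTTGAA stood in 15% of replication genes, a share below that of all genes. A match is a run of letters and shows no binding, and the lists were drawn up from genes already known for their cell cycle roles.

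Many of the steepest rises lay in the natural killer gene complex of chromosome 6, which holds the genes of the Ly49 and NKG2 lectin receptors. Ly49 receptors bind MHC class I and mostly inhibit NK cells and subsets of CD8 T cells. Of 11 tested Ly49 genes, 10 rose and none fell (median 2.12), and their summed reads went from 72.6, 72.6 and 81.1 CPM in WT to 481, 484 and 496 in cKO, without overlap. Klra3 had 469, 499 and 551 normalised reads in WT and 2128, 2244 and 2211 in cKO (log2 fold change 2.12 with an SE of 0.06, adjusted p = 2.8e-14), Klra13-ps, a pseudogene of the family, rose 10.6-fold, and Klra8, the gene of the activating receptor Ly49H, rose 4.02-fold. The Ly49 genes are close copies, so that reads may be shared out wrongly between them. Gamma-delta and NK cells also carry such receptors, and their summed markers, given below, stood higher in cKO. The NK list itself holds the killer lectin genes Klra8 and Klre1, so it is not independent of this result. Of its 12 tested genes, 8 were called higher and 2, Klrb1c and Eomes, lower. The part of gamma-delta and NK cells in the result was not tested. Of 16 NKG2 and other killer lectin genes and their adaptors, 11 were called higher and 1 lower (7 and 1 of 17 in the fit of 18 libraries). Klre1, a partner of the KLRI receptors, rose from 1599.9 ± 148 to 4723 ± 103 (log2 fold change 1.56 with an SE of 0.05, adjusted p = 2.6e-13), and Klri2 itself from 47.8 ± 6.19 to 352 ± 47.3 (log2 fold change 2.85). Klrk1, the gene of the activating receptor NKG2D, rose 1.55-fold. Klrb1c, the gene of the mouse NK marker NK1.1, fell by 49.3%, from 491 ± 28.2 to 249 ± 19.6. The signalling adaptors Fcer1g and Tyrobp, expressed in NK and myeloid cells, rose 2.93-fold and 2.08-fold from low levels.

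By position, 30 of 40 tested genes between Klrb1c and Klra2 (chromosome 6, 128755448 to 131224325 in GRCm39, the build of the read counts) were called, 27 higher and 3 lower. Chromosome 6 had 71 of its 763 tested genes called at 2-fold or more (9.31%), against 3.55% of all genes tested. In bins of 5 Mb, the highest such share on the chromosome was not here but between 65000001 and 70000000, where 15 of 41 tested genes (36.6%) passed that size, all 15 of them immunoglobulin V genes that were higher. By gene type, over all chromosomes, 28 of 65 tested immunoglobulin V genes were called higher and 3 lower. The summed B cell markers given below also stood higher, but that list itself holds immunoglobulin constant genes. The part of B cells in this was not tested. Of 16 tested genes around the Cd8 genes on the same chromosome, these included, 6 were called lower and 1 higher, against 9.37% and 10.7% of all genes. Those called lower were Smyd1, Cd8b1 and Cd8a, around which the genes were picked, and unnamed gene models lying between Cd8b1 and Cd8a. The count therefore does not speak for the wider region. Cd8b1, the gene of the CD8 beta chain, had 20750.1, 20372 and 21019 normalised reads in WT and 12680.1, 12952 and 12483 in cKO, 38.7% less and without overlap (log2 fold change -0.71 with an SE of 0.03, adjusted p = 6.2e-12). Smyd1, whose span ends just before that of Cd8b1, fell 2.96-fold, from 464 ± 44.5 to 157 ± 6.66. Cd8a, the alpha chain gene, stood 7.88% lower, at 28279.6 ± 329.8 and 26049.9 ± 1085, with its call lost without WT replicate 3 (adjusted p = 0.073) and in the fit of 18 libraries (0.24). Krcc1, which lies within the span of Smyd1 and was looked up after its value was seen, was not called, with a log2 fold change of 0.07 (adjusted p = 0.49). The strand used in counting is not recorded, so reads of overlapping genes cannot be told apart. Positions were examined after values were seen.

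The T cell receptor genes, also examined after their values were seen, differed in which variable (V) segments were used. Of 80 tested receptor V genes, 15 rose and 25 fell, a called share of 50% against 20.1% of all genes. Trbv12-1 had 760.1, 773 and 780.2 normalised reads in WT and 174, 169 and 180.4 in cKO (log2 fold change -2.14 with an SE of 0.08, adjusted p = 7.2e-13). Trbv2 went the other way, with 171, 168 and 179 in WT and 618, 642 and 668 in cKO (log2 fold change 1.89 with an SE of 0.08, adjusted p = 8.3e-12), and Trav14-1 rose 4.57-fold, from 115 ± 8.68 to 526 ± 15.1. Trbv14 stood at 686 ± 20.1 and 691 ± 45.2 and was not called (adjusted p = 0.95). Replicates of a genotype matched closely. Over the 20 V genes with a mean of at least 100 reads, the median coefficient of variation between libraries was 7.04% in WT and 6.02% in cKO. The constant gene Trbc1 fell by 23.7% and Trac stood higher, from 8415 ± 282 to 9304 ± 212, with its call lost in the fit of 18 libraries (adjusted p = 0.19). Of 29 genes of T cell receptor signalling, 10 were called higher and 4 lower, or 3 each way in the fit of 18 libraries.

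**Figure D3:**
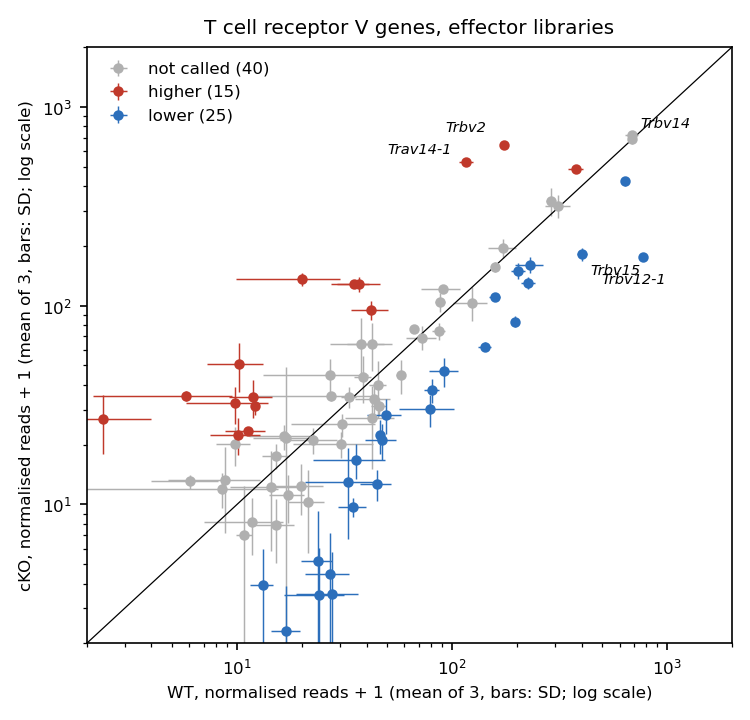
Mean normalised reads plus 1 of the 80 tested T cell receptor V genes in WT (horizontal, log scale) and cKO (vertical, log scale) effector libraries, with bars of 1 SD, bars that reach an axis being cut there, and a diagonal of equal level. Trbv12-1 and Trbv15 lie below the diagonal, Trbv2 and Trav14-1 above it, and Trbv14 on it.

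Markers of cells other than CD8 alpha-beta T cells were measured because several genes above are also expressed by such cells. Gamma-delta T cell markers were summed to 24.7, 25.7 and 27.8 CPM in WT and 107, 109 and 112 in cKO, with 6 of 7 tested members called higher. Trgc2, a gamma chain constant gene, rose from 53.5 ± 9.71 to 466 ± 13.4 and Trdc, the delta chain constant gene, from 60.3 ± 13.7 to 246 ± 7.15. Gamma constant genes are close copies that can share reads. Erythroid markers went from 28.9, 28.5 and 29.4 to 141, 139.8 and 138 CPM, with 15 of 16 called higher (9 of 13 in the fit of 18 libraries). Of the 18 erythroid markers, Hbb-bh1 and Ahsp had no reads or were not listed. Neutrophil markers went from 20.9 ± 1.72 to 67.9 ± 4.07, with 10 of 11 called higher (6 of 12 in the fit of 18 libraries). The defining neutrophil markers Ly6g, Retnlg, Cxcr2, Mmp8 and Padi4 stayed under 10 reads per library.

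Macrophage and dendritic cell markers were summed to 834 ± 3.16 CPM in WT and 1006 ± 12.9 in cKO. Most of this sum came from Itgax (11206 to 12769 normalised reads) and Itgam, which activated CD8 T cells also express. Of the 24 tested, 17 were called higher and 1, Itgam, lower (11 and 0 of 23 in the fit of 18 libraries). Clec9a, which marks cross-presenting dendritic cells, rose from 9.81 ± 1.56 to 86.7 ± 15, and Wdfy4, which those cells need for cross-presentation, from 86.2 ± 21.7 to 365 ± 2.42. Fcgr1 and Marco stayed under 10 reads per library. Mpeg1, a perforin-like gene of phagocytes, rose from 147 ± 4.14 to 666 ± 17.3. NK cell markers stood at 4727 ± 181 and 5414 ± 325 CPM, a sum made up mostly of granzyme A (Gzma), and the NK receptor gene Ncr1 rose from 19.8 ± 8.08 to 75.5 ± 8.98. B cell markers went from 229 ± 4.14 to 304 ± 9.18, platelet markers from 6.23 ± 0.721 to 12.3 ± 1.45 and mast cell markers from 6.18 ± 0.495 to 12.2 ± 0.464. Of the 13 tested B cell markers, 3 were called higher and none lower (median 0.20). The immunoglobulin constant gene Igkc rose from 997 ± 71.8 to 1960 ± 145 normalised reads. Ighm and Ighd, also constant genes, were not called (adjusted p = 0.58 each). The platelet marker Pf4 stayed under 10 reads per library, and Gp1bb and the mast cell proteases Mcpt1, Mcpt2, Mcpt4, Tpsb2 and Tpsab1 had no reads or were not listed. Plasma cell markers went from 201 ± 4.38 to 190.4 ± 2.44, and CD4 and regulatory T cell markers from 105 ± 2.07 to 104 ± 2.74. The lower plasma cell sum does not speak for each member. Of the 4 tested, 3 had log2 fold changes above 0, 1 was called higher and 1, Irf4, lower. Their median was 0.51, or 0.02 with at least 50 normalised reads. The groups overlapped for the CD4 sum (exact two-sided permutation p = 0.5) and for none of the other sums (p = 0.1 each, the smallest possible). By the per-kilobase measure used above for Gzmb, the highest CD4 list members were Gata3 (9.999 in WT, 9.419 in cKO) and Zbtb7b (9.692 and 9.297). Foxp3, a regulatory T cell gene, stood at 0.184 and 0.6694. Of the 7 tested members, 4 had log2 fold changes above 0 and 3 below. In all, 2 were called higher and none lower. With any 1 library left out 1 was called higher, and with at least 50 normalised reads 0. The CD4 sum therefore does not speak for each member. CD8 T cell markers themselves stood at 8616 ± 66.7 and 8147 ± 134. Of the 12 tested, 3 were called higher and 3 lower, with a median of 0.08, or 0.05 without WT replicate 2. The largest fall of the list was that of Cd8b1, so this sum does not speak for each member either. The part of these other cells in the changes of Irf8, Ikzf2, the killer lectin genes and the MHC class II genes was not tested.

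**Figure D4:**
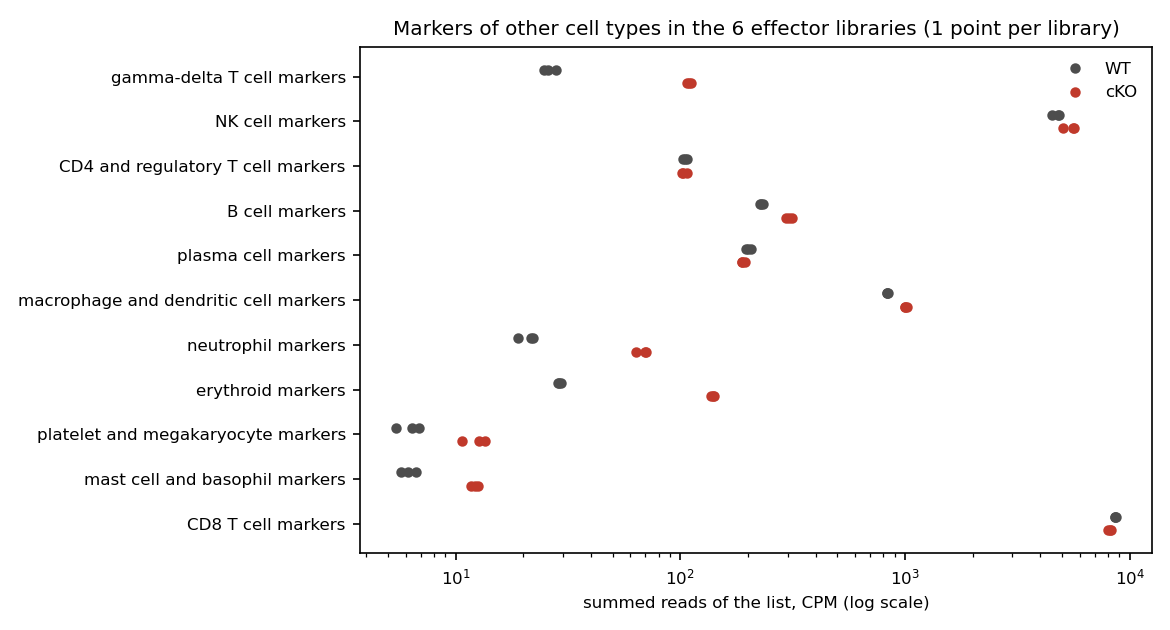
Summed reads of the marker lists of 10 other cell types and of CD8 T cells, in CPM (log scale), with 1 point per effector library, grey for WT and red for cKO. Gamma-delta, erythroid and neutrophil sums lie well to the right in cKO, while the CD4 sums overlap.

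Antigen presentation genes rose together with those markers. Of 10 tested MHC class II genes, 8 were called higher and none lower (median 1.09), and the list summed to 173, 179 and 181 CPM in WT and 443, 439 and 426 in cKO. Cd74, the invariant chain gene, had 1219, 1194 and 1178 normalised reads in WT and 3012, 2774 and 2821 in cKO (log2 fold change 1.26 with an SE of 0.05, adjusted p = 7.2e-13). H2-Eb1, a beta chain gene, had 353, 369.5 and 375 and 1088, 1094 and 1094 in the same order (log2 fold change 1.57 with an SE of 0.06, adjusted p = 1.7e-12). Both genes showed groups far apart. Interferon gamma inducible genes changed in smaller steps, with 11 of 25 called higher and none lower (median 0.13), such as the GTPase genes Gbp4 (1.3-fold) and Igtp (1.23-fold). Of 37 interferon-stimulated genes, 7 were called higher and 4 lower (median 0.05, or 0.09 without cKO replicate 1 and 0.03 without cKO replicate 3), against 10.7% and 9.37% of all genes. The fit of 18 libraries gave 9 and 1 of 39, and 2 were lower without WT replicate 1. The largest rise of the list was that of Usp18, which encodes a brake of the type I interferon receptor and went from 139, 198 and 199 in WT to 501, 469 and 421 in cKO (log2 fold change 1.39 with an SE of 0.12, adjusted p = 1.8e-07).

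Genes of cell death and stress rose on both sides of the balance. Beside Bcl2, the protective genes Bcl2l1 (1.3-fold) and Mcl1 (1.15-fold) rose, and so did the death-promoting BH3-only genes Bcl2l11 (1.48-fold), Bbc3 (1.43-fold) and Pmaip1 (1.25-fold). Bcl2l11, the gene of BIM, which BCL2 binds, went from 1573 ± 75.1 to 2322 ± 63.7. Of 18 BCL2 family genes, 7 were called higher and none lower, against 10.7% and 9.37% of all genes tested. Of 26 p53 target genes, 10 were called higher and none lower (median 0.19), falling to 6 in the fit of 18 libraries and to 6 without WT replicate 1. Nutrient restraint genes, which slow growth or glucose uptake, had 10 of 17 members higher and 1 lower. The glucose uptake inhibitor gene Txnip rose 1.32-fold, the MYC antagonist gene Mxd4 1.37-fold, the stress sensor gene Sesn3 1.27-fold and Irs2, a FOXO-induced insulin signalling adaptor gene, 1.9-fold.

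Nuclear-encoded genes of mitochondrial import, the mitochondrial ribosome and complex I had few calls. Of 30 tested genes of mitochondrial import, the process GRP75 drives, limma called 0. At an unadjusted p under 0.05 there were 6, edgeR called 1 and DESeq2 0, and no alternative fit called more than 1. Of 76 mitochondrial ribosome genes, 6 were called lower and none higher, and of 48 complex I genes 3 were called lower and none higher, shares below the background of 20.1%. Of 20 iron-sulfur cluster genes, 2 were called higher and 1 lower. The fit of 18 libraries called 0, 1 and 0 genes of these 3 lists, and without WT replicate 1 no complex I gene was called lower. Of 13 mitochondrially encoded mRNAs, 5 were called higher (38.5%, against 10.7% of all genes tested that were called higher) and none lower, with 1 in the fit of 18 libraries and 8 without cKO replicate 2. Their sum went from 17265 ± 573 CPM in WT to 20354 ± 636 in cKO without overlap (p = 0.1, the smallest an exact permutation test of 3 against 3 allows), and the mitochondrial chromosome took 1.86% ± 0.0603 of the reads in WT and 2.17% ± 0.0488 in cKO. In fatty acid synthesis, Scd2, a desaturase gene, had 2093, 2184 and 2108 normalised reads in WT and 1108, 1095 and 1147 in cKO (log2 fold change -0.93 with an SE of 0.05, adjusted p = 5.8e-11), and Acaca, the gene of the rate-limiting carboxylase, fell by 25.8%. Of 15 genes of this list, 3 were called lower and 1 higher (0 higher in the fit of 18 libraries), against 9.37% and 10.7% of all genes tested. Slc16a1, a lactate transporter gene, fell by 25.6%. Among antioxidant genes, Prdx6, a phospholipid peroxidase gene, rose 1.4-fold, from 2014 ± 49.9 to 2829.8 ± 131. Of 24 genes of the endoplasmic reticulum stress response, 7 were called lower and 4 higher (2 higher of 25 in the fit of 18 libraries, and 2 without WT replicate 1). Pdia4 and Canx, folding factors of its lumen and membrane, fell by 23.8% and 18.4%, while Dnajb9, an induced cochaperone gene, rose 1.25-fold.

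The genotype effect in effector cells was then set against that in naive and memory cells, in 1 fit of the 18 libraries, with the difference of the effects tested for each of 15694 genes. The effect differed between effector and naive cells for 2902 genes (18.5%) and between effector and memory cells for 1367 genes (8.71%). Of the 929 genes higher in effector cells in this fit, 303 (32.6%) were also higher in naive cells and 134 (14.4%) were lower there. Those 303 were 14.5% of the genes higher in naive cells. With memory cells, 453 (48.8%) were shared, 25.7% of the genes higher in memory cells, and 58 (6.24%) were opposite. Of the 590 genes lower in effector cells, 71 (12%) were lower and 165 (28%) higher in naive cells, and 179 (30.3%) were lower and 37 (6.27%) higher in memory cells. Those 71 were 3.87% of the genes lower in naive cells, and the 179 were 12.2% of those lower in memory cells. Over all 15694 genes, 2094 were higher and 1833 lower in naive cells, and 1762 and 1473 in memory cells.

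Cell cycle genes were among the opposite ones. The median effect on mitosis genes was -0.38 in effector cells against 1.81 (naive) and 0.25 (memory), and the effect was lower in effector than in naive cells for 60 of 66 members and lower than in memory cells for 34 by the test of the difference. For replication genes the medians were -0.36, 0.16 and 0.09, with 34 and 20 of 50 members lower by the same test. Top2a showed effects of -0.46, 2.31 and 0.38 in effector, naive and memory cells, with an effector minus naive difference of -2.78 (with an SE of 0.10, adjusted p = 4.2e-15). The immediate early gene Fos stood at -0.74, 1.57 and 0.13 in the same order and an effector minus naive difference of -2.31 (with an SE of 0.10, adjusted p = 9.3e-14).

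**Figure D5:**
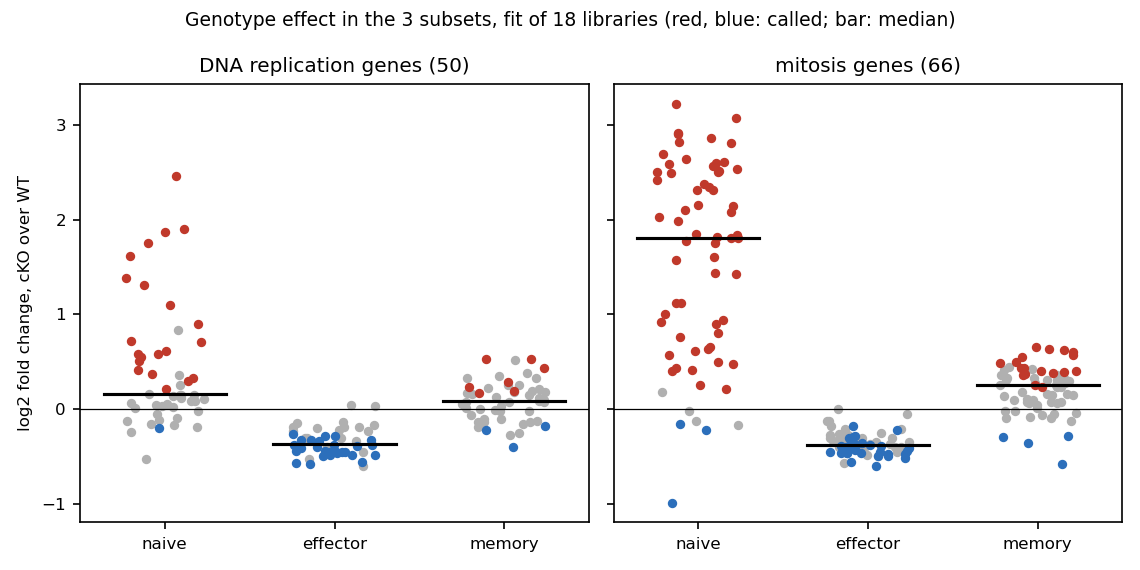
Log2 fold changes of libraries labelled cKO over WT (vertical) for DNA replication and mitosis genes in naive, effector and memory cells from the fit of 18 libraries, with 1 point per gene (red called higher, blue called lower, grey not called) and a bar at each median. The mitosis median lies below 0 in effector cells (-0.38) and above it in the naive (1.81) and memory (0.25) cells.

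Survival genes also differed between the subsets. Il7r was higher under the cKO label in effector cells (0.56) and lower in naive (-0.48) and memory cells (-0.49), with differences of 1.05 (with an SE of 0.07, adjusted p = 3.2e-10) against naive and 1.05 (with an SE of 0.07, adjusted p = 2.0e-09) against memory cells. Bcl2 was higher in every subset, with the larger effect in effector cells (1.66, 0.98 and 0.94), and the differences were 0.67 (with an SE of 0.08, adjusted p = 1.8e-06) and 0.72 (with an SE of 0.08, adjusted p = 3.0e-06). The integrin gene Itgb1 fell in effector cells (-0.82) but was higher in naive cells (0.53), a difference of -1.35 (with an SE of 0.09, adjusted p = 1.1e-10). Gpr55 showed -2.85 in effector against -0.15 (naive) and -0.51 (memory), with differences of -2.70 (with an SE of 0.16, adjusted p = 3.3e-11) and -2.34 (with an SE of 0.16, adjusted p = 2.4e-09). Other genes changed in the same direction in the 3 subsets. Rhoh showed -1.27, -1.25 and -1.31, with differences of -0.02 (with an SE of 0.10, adjusted p = 0.94) and 0.04 (with an SE of 0.10, adjusted p = 0.87). Klra7 showed 3.48, 4.38 and 3.55, with an effector minus naive difference of -0.90 (with an SE of 0.30, adjusted p = 0.039) and an effector minus memory difference of -0.07 (with an SE of 0.30, adjusted p = 0.92). Cd8b1 was lower in each subset, by -0.71, -0.46 and -0.83, and neither difference passed the threshold (adjusted p = 0.06 against naive and 0.44 against memory cells).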

How the data were processed

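Each genotype and subset had 3 libraries of poly-A RNA. Per the submitters' processing notes, the build was GRCm39 and the software included HISAT2 2.2.1, featureCounts 2.0.6, DESeq2 1.42.0 and fastp. Settings, annotation and strand mode are not given in the sources used here. The deposited file of each subset holds a signal per gene and library, namely the authors' read counts divided by a size factor. Scaled back, 100% of the effector values gave whole reads (tolerance 1e-05). The deposited tables also hold the authors' log2 fold change (WT over cKO), p-value and adjusted p, which were not used here.

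For each gene, limma 3.58.1 under R 4.3.3 was run on the deposited values as log2(value + 1) with an intensity trend, over genes with at least 10 normalised reads in 3 of the 6 effector libraries, with Benjamini-Hochberg adjustment and a threshold of 0.05. Fold changes on this scale understate those of low genes. Subsets were compared by interaction terms in a fit of 18 libraries, each subset having been normalised separately by the authors. Alternatives were edgeR 4.0.16 quasi-likelihood and DESeq2 1.42.0 on the recovered counts, other scalings, pseudocounts and filters, a replicate block, each library left out, and the fit of 18 libraries. In counts simulated for the effector comparison with 200 changed genes, limma called 29 of 50 genes changed by 1.25-fold, 49 of 50 at 1.5-fold and all 50 at 2-fold and at 4-fold, with 11 false calls among 13615 genes. Every simulated gene had the same coefficient of variation, 5.499%, beyond sampling noise. Changes were planted only in genes with a mean of at least 50 reads. These rates therefore need not hold for the real data, where the spread can differ between genes.

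Genes were grouped in 65 lists, and 35 of their 1469 entries were matched by a synonym while 31 found no match. Genes named singly were a fixed set of T cell genes with Hspa9, up to 6 called members per list and direction with the smallest adjusted p, all members of lists with 8 or fewer measured genes, the leading markers, the 15 largest changes per direction among called genes with at least 4 CPM and no overlap between groups, and the 6 largest subset differences per direction. Krcc1, Rrm1, the receptor V genes and positions lie outside that rule. A named gene is not reported here. The members and lists were chosen with earlier results of these data known. Replicates differed by more than sampling noise, with a chi-square per degree of freedom of 2.71 to 6.86 between pairs, so none was merged. Depth was the sum of recovered reads, and permutation tests on summed values were exact and two-sided. Same-numbered replicates did not vary together, so no pairing was used.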

Additional observations from a re-analysis of the deposited data

Results flagged for a closer look

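The genotype effect (log2 of libraries labelled cKO over WT) differed between subsets by the interaction term of the fit of 18 libraries at an adjusted p under 0.05 for the genes below. Each value below is the effect in effector cells minus that in the other subset. A value below 0 therefore need not be a fall in effector cells. For Hspa9 the effect in effector cells was 0.16. Its values below 0 mean that it stood higher under the cKO label in naive and memory cells too. Groups of 3 libraries were not tested for a library far from the others.

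Against naive cells, the effect in effector cells was higher for Il7r at 1.05, Bcl2 at 0.67 and Cxcr3 at 0.71. A lower effect was seen for Ifng at -2.53, Tigit at -2.41, Pdcd1 at -2.03, Cx3cr1 at -1.74, Gzma at -1.70, Il2ra at -1.65, Lag3 at -1.39, Ctla4 at -1.07, Tox at -0.80, Ccr7 at -0.77 and Id2 at -0.32. It was also lower for Soat2 at -5.86, Asns at -5.53, Cdkn1a at -4.97, Niban1 at -4.65, Fosb at -4.40, Ska1 at -4.26, Mki67 at -3.32, Ddit3 at -1.58, Hspa9 at -0.53 and Bcl2l11 at -0.42. The effect was also higher for the globin genes, at 6.56 (Hbb-bs), 6.12 (Hba-a1) and 4.66 (Hbb-bt), and for App at 2.97, Hspa1a at 2.98, and the mitochondrial mRNAs at 2.67 (mt-Co2), 2.08 (mt-Co1) and 2.01 (mt-Cytb).

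Against memory cells, Il7r stood at 1.05, Bcl2 at 0.72, Tcf7 at 0.30, Ctla4 at 0.77, Klra10 at 2.08, App at 1.99, F2rl1 at 1.60, Zbtb32 at 1.44, Bend4 at 1.42, mt-Cytb at 1.10 and mt-Co1 at 1.07. The lower effects were Plxnb2 at -3.83, Klrb1c at -3.48, Anxa1 at -3.46, Prr5l at -3.29, Emilin2 at -3.06, Ccl6 at -2.98, Ifng at -1.03, Mki67 at -0.99, Prdm1 at -0.99, Cxcr3 at -0.61, Tox at -0.58, Id2 at -0.40, Ddit3 at -0.38, Bcl2l11 at -0.35 and Hspa9 at -0.32.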

How the results depend on the processing

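The effector comparison called 2779 genes. It called 2820 by edgeR, 2414 by DESeq2, 2785 with library totals, 2778 with TMM, 2768 and 2841 with pseudocounts of 0.5 and 10, 2687 with no filter on low values and 2539 with at least 50 normalised reads. Leaving out 1 library gave 2095 to 2585 genes, 1153 to 1404 of them higher and 895 to 1188 lower. The fit of 18 libraries, which estimates the spread over all subsets, called 1519, with 929 higher and 590 lower, and raised the share called higher from 53.4% to 61.2%. With the replicate number as a block the count was 2687, and same-numbered libraries correlated at -0.070, 0.0015 and 0.091 in their deviations from group means, so the numbers pair nothing. With 1 library left out, the effect differed from that in naive cells for 2387 to 2551 genes and from that in memory cells for 1001 to 1197. No named gene changed sign between the main effector fit and an alternative where either of them called it. Subset differences were not part of that count. Some list medians did change sign, such as that of immediate early genes, from -0.03 to 0.08 without WT replicate 2. Of the 374 named genes called, 207 kept their call in every alternative, and the fit of 18 libraries ended 146 calls. Most called changes are small, and at 3 libraries per group the simulated test missed 21 of 50 genes changed by 1.25-fold. That simulation gave all genes the same spread, so the rate in the real data may differ.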
